A study of Mus musculus with 3 samples.

Results

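The SR splicing factor genes and the hnRNP genes are 2 families of RNA-binding proteins that steer the splicing of messenger RNA. The members were the rows of the deposited gene table whose symbol begins with Srsf and a digit (11 SR genes) or with Hnrnp (18 hnRNP genes), 29 of the 16977 genes in the table. SR proteins carry RNA recognition motifs and a tail rich in arginine and serine; they bind enhancer elements in exons and help recruit the spliceosome. The hnRNP proteins coat nascent transcripts, and many of them bind silencer elements and oppose exon inclusion. Members of both families are known to control their own transcripts through splice forms that are degraded by nonsense-mediated decay, a pathway that removes messages with early stop codons.

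The libraries were made from total RNA, after removal of ribosomal RNA, of neural stem cells grown in culture from C57BL/6J embryos of stage E12.5. Such cells divide and give rise to neurons and glia. All cells were kept in EGF and FGF and were infected with a lentivirus. The control library (shControl, 1 library) came from cells with a control hairpin, and the shPHF2 libraries (2, described as biological replicates) from cells with a hairpin against PHF2, a PHD-finger histone demethylase with methylated H3K9 as its substrate. The sources used here give neither the hairpin sequences nor whether the replicates shared a hairpin. With 1 control library its spread could not be measured, so each control value is that of a single culture.

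Reads assigned to genes numbered 26302177 to 37171026 per library. Values are normalised reads, gene reads scaled by a size factor for each library, and fold changes are differences of log2(value + 1) between shPHF2 and shControl. A gene was called when its Benjamini-Hochberg adjusted p over all 14148 genes tested was under 0.05 (limma with a mean-variance trend). The targeted gene Phf2 stood at 2593 normalised reads in the control against 985 and 714 in shPHF2 replicates 1 and 2. Neural stem cell markers were present in all libraries: Sox2 had 5893, 10114 and 8819 normalised reads and Nes 118161, 101381 and 98053, in the order shControl, replicate 1 and replicate 2. Vim had 77235, 116785 and 132042 and Fabp7 56223, 41962 and 66987. Pax6 had 1392, 1046 and 691, a log2 fold change of -0.71 that did not pass (limma, adjusted p = 0.12). Of 11 such markers 1, Sox2, rose by limma and 0 fell; 1 was lower at an unadjusted p under 0.05, and edgeR called 0 and DESeq2 3 higher. The 5 fibroblast markers were all under 10 normalised reads in shControl. The 4 astrocyte markers summed to 478, 1263 and 1917 in the same order, with 1 higher and 0 lower by limma, and Gfap and Aqp4 under 10 in shControl. The 6 neuronal markers summed to 61830, 41088 and 40265; limma and edgeR called 0 of them, DESeq2 1 lower, and at an unadjusted p under 0.05 1 was lower and 1 higher by limma. The 6 oligodendrocyte lineage markers summed to 32107, 26615 and 31178, with Mbp under 10 in shControl. The sums were 111, 238 and 228 for 4 microglia markers and 207, 169 and 80.8 for 3 endothelial markers. Limma called 0 markers of these cell types. At an unadjusted p under 0.05 (limma), 1 oligodendrocyte lineage marker was lower and 1 microglia marker higher. The part of these shifts in the results was not tested. In bulk RNA, fewer cells of a type and less RNA per cell cannot be told apart.

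All 29 members passed the minimum mean of 10 normalised reads and were tested. Of these, 9 passed the test, and all 9 were lower in shPHF2: 6 of 11 SR genes and 3 of 18 hnRNP genes. Of all genes tested, 7.11% were called lower, and 11.7% of the 6789 genes whose mean reached 1000 normalised reads. No member was called higher (limma), against 7.22% of all genes. At an unadjusted p under 0.05, 0 members were higher beside 15.8% of all genes. Both edgeR and DESeq2 also called 0 members higher, beside 1007 and 999 of all 14148 genes tested. Without the mean-variance trend or the filter on low values limma called 0 genes in the whole table, and the adjusted p of these 9 members was 0.14 to 0.19. The median log2 fold change was -0.73 over the SR genes and -0.45 over the hnRNP genes, beside -0.01 over all genes tested. Both shPHF2 libraries lay below the control for 9 of 11 SR genes and for 18 of 18 hnRNP genes, beside 41.8% of all genes tested and 47.8% of those with a mean of at least 1000.

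**Figure D1:**
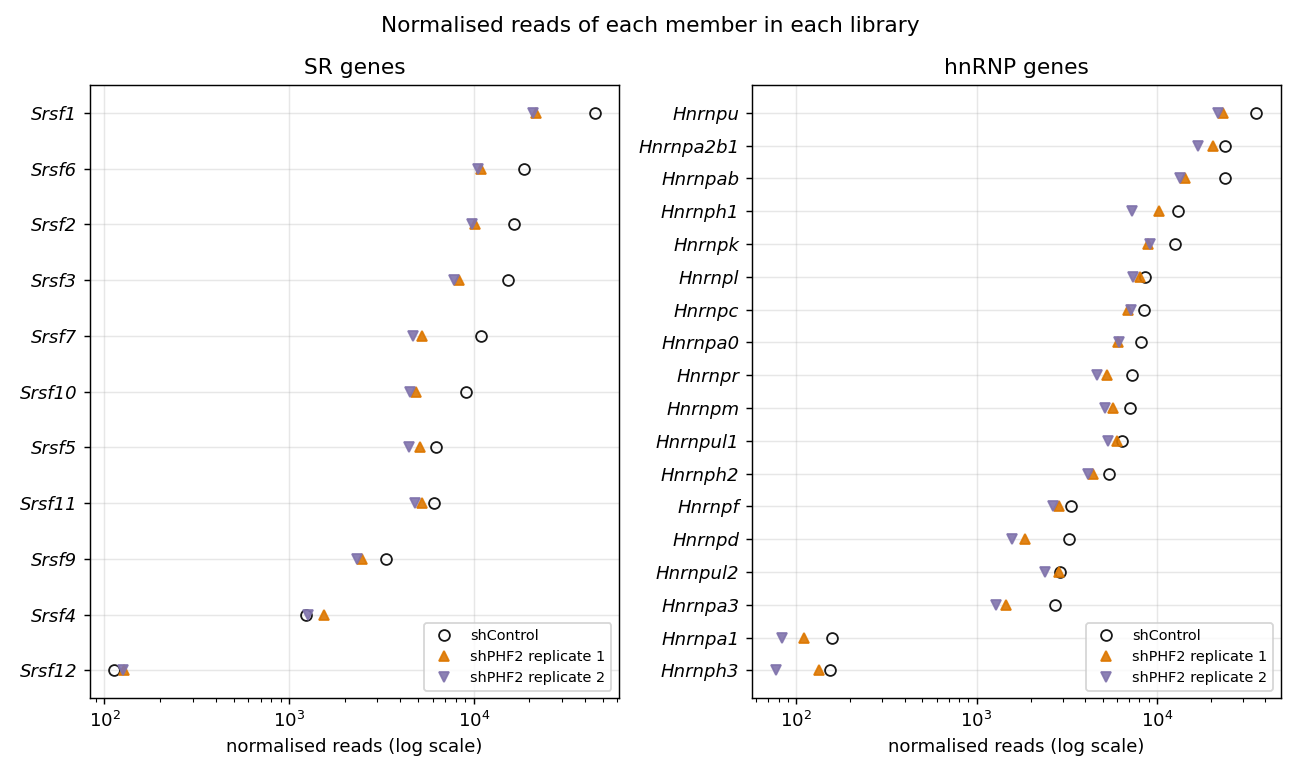
Normalised reads (x axis, log scale) of the 11 SR genes (left) and 18 hnRNP genes (right) in shControl (open circles), shPHF2 replicate 1 (upward triangles) and replicate 2 (downward triangles), sorted by the control. Srsf1 stands at 45139 in the control and at 21849 and 21045 in the shPHF2 libraries, while Srsf4 and Srsf12 are the 2 members with both shPHF2 libraries above the control.

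Among the SR genes, the closely related pair Srsf7 and Srsf3 fell together. Their proteins are small, with a single RNA recognition motif, and both serve as adaptors for export of messenger RNA. Srsf7 (chromosome 17, 80200080 to 80207307, minus strand) had 11005 normalised reads in shControl, 5223 in replicate 1 and 4666 in replicate 2. The shPHF2 libraries lay close to each other and well under the control, and the change on the log2 scale was -1.16 (SE 0.18; limma, adjusted p = 0.0095). Srsf3 (chromosome 17, 29032628 to 29043373, plus strand) had 15248, 8336 and 7798 normalised reads in the same order. Its log2 fold change was -0.92 (SE 0.18; limma, adjusted p = 0.019), and Srsf7 minus Srsf3 in log2 fold change was -0.20 in replicate 1 and -0.27 in replicate 2.

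Srsf1, the founding SR protein gene and the member with the most reads per length of exon in its family (7905 normalised reads per kb in shControl), fell as well. It lies on chromosome 11 (88047373 to 88053755, plus strand) and had 45139 normalised reads in shControl, 21849 in replicate 1 and 21045 in replicate 2. The shPHF2 mean of 21447 ± 569 (SD, n = 2) was 47.5% of the control, and the log2 fold change was -1.07 (SE 0.22; limma, adjusted p = 0.021). Srsf9, the closest relative of Srsf1, had 3331 normalised reads in shControl, 2493 in replicate 1 and 2332 in replicate 2. Both values lay under the control, but the log2 fold change of -0.47 did not pass (SE 0.18; limma, adjusted p = 0.11). Srsf1 changed by more than Srsf9 in each replicate, by -0.63 and -0.59 on the log2 scale, a difference that was not tested.

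A second pair diverged further. Srsf10, which encodes an SR protein known as a repressor of splicing when dephosphorylated, lies on chromosome 4 (135855747 to 135869908, plus strand) and had 9120 normalised reads in shControl, 4853 in replicate 1 and 4538 in replicate 2. It fell by 0.96 on the log2 scale (SE 0.18; limma, adjusted p = 0.015). Its relative Srsf12 had 113 normalised reads in shControl, 128 in replicate 1 and 127 in replicate 2, so both shPHF2 libraries lay slightly above the control. Its log2 fold change of 0.17 had a standard error of 0.39 and did not pass (limma, adjusted p = 0.80). At this level the fit could not tell a small change in Srsf12 from none.

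The group of Srsf4, Srsf5 and Srsf6, with 2 RNA recognition motifs each, ranged most widely after Srsf10 and Srsf12. Srsf6 (chromosome 2, 162931528 to 162937121, plus strand) had 18819 normalised reads in shControl, 10901 in replicate 1 and 10603 in replicate 2. The shPHF2 libraries nearly coincided, and the log2 fold change was -0.81 (SE 0.19; limma, adjusted p = 0.030). Srsf5 had 6266, 5121 and 4450 normalised reads in the same order, a log2 fold change of -0.39 that did not pass (limma, adjusted p = 0.19). Srsf4 had 1231, 1540 and 1265. Only replicate 1 stood clearly above the control, and the change of 0.18 did not pass (SE 0.21; limma, adjusted p = 0.60). In log2 fold change, Srsf6 minus Srsf4 was -1.11 in replicate 1 and -0.87 in replicate 2, a difference that was not tested.

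Srsf2, needed for constitutive splicing and a component of nuclear speckles, had 16576 normalised reads in shControl, 10182 in replicate 1 and 9790 in replicate 2 (chromosome 11, 116849901 to 116853094, minus strand). It fell by 0.73 on the log2 scale (SE 0.19; limma, adjusted p = 0.039). Its exons share 748 bases with exons of Mettl23 and Mfsd11 on the opposite strand, and the sources used here do not say whether counting used the strand. Srsf11 had 6101, 5251 and 4829 normalised reads in the order shControl, replicate 1 and replicate 2. Its log2 fold change of -0.28 did not pass (SE 0.18; limma, adjusted p = 0.33).

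**Figure D2:**
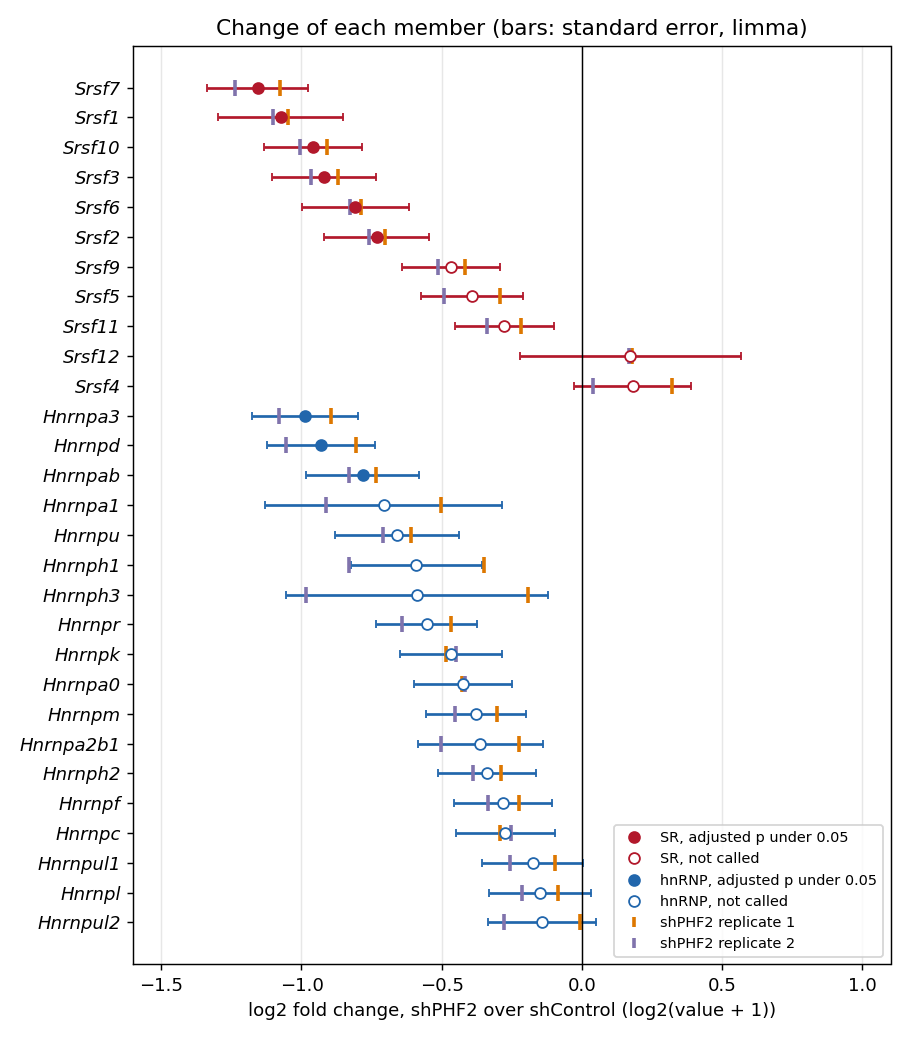
Log2 fold change of each member with its standard error from limma (circles and bars; filled where adjusted p was under 0.05), and the change in each shPHF2 library alone (ticks). The 6 SR genes called lie from -1.16 to -0.73 and the 3 hnRNP genes called from -0.99 to -0.78.

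Of the hnRNP genes, 3 fell. Hnrnpa3, an A-type gene whose product also binds elements that direct transport of messages, had 2719 normalised reads in shControl, 1463 in replicate 1 and 1284 in replicate 2 (chromosome 2, 75659261 to 75669407, plus strand). Its log2 fold change was -0.99 (SE 0.19; limma, adjusted p = 0.017). Hnrnpd, also known as Auf1 and a regulator of the stability of AU-rich messages, had 3265, 1868 and 1572 (chromosome 5, 99955935 to 99978938, minus strand), and its log2 fold change was -0.93 (SE 0.19; limma, adjusted p = 0.021). Its relative Hnrnpab, with the most reads per length of exon among the hnRNP genes (8582 normalised reads per kb in shControl), had 23876, 14348 and 13430 (chromosome 11, 51600100 to 51606847, minus strand). It changed by -0.78 (SE 0.20; limma, adjusted p = 0.039). Across these 3 genes the shPHF2 libraries stood at 47.2% (Hnrnpa3, replicate 2) to 60.1% (Hnrnpab, replicate 1) of the control. Hnrpdl, the third gene of the Hnrnpd type, is listed under its older symbol and so fell outside the rule. It had 11657, 7209 and 6814 normalised reads and a log2 fold change of -0.73 (limma, adjusted p = 0.034). Hnrpll, also under an older symbol, had 3621, 2592 and 2179 and did not pass (-0.61; limma, adjusted p = 0.070). Sfrs18, under an older SR-type symbol, had 4125, 4479 and 3618 and changed little (-0.04; limma, adjusted p = 0.92). Sfrs18 was not added to the SR genes in any alternative.

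The promoters of called members are shown because these genes, of both families, fell together. Of the 9, the 6 printed are those whose 250 bases before the RefSeq start (GRCm38.p6) hold no exon base of the gene itself and no untranslated base of any gene in GENCODE M21; the stretches of Srsf3, Srsf7 and Srsf10 did not meet this. They run 5′ to 3′ on the strand of the gene, with E2F-type motifs (TTTGGCGC or TTTCCCGC) and CCAAT in capitals on either strand; a CCAAT match of Srsf1 runs past the end shown. They lie at chr11:88047123-88047372, plus strand, for Srsf1, chr11:116853095-116853344, minus strand, for Srsf2, chr2:162931258-162931507, plus strand, for Srsf6, chr2:75659009-75659258, plus strand, for Hnrnpa3, chr11:51606882-51607131, minus strand, for Hnrnpab and chr5:99978939-99979188, minus strand, for Hnrnpd.
Srsf1: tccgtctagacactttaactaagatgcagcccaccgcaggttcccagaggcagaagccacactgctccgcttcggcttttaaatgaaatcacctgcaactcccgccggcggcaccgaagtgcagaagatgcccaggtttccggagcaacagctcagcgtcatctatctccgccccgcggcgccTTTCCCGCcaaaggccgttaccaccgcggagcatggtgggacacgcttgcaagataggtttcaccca
Srsf2: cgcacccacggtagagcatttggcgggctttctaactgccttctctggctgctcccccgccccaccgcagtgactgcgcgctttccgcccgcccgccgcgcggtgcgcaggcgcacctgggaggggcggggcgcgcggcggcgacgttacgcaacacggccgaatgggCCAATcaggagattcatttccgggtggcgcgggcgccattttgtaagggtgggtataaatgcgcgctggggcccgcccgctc
Srsf6: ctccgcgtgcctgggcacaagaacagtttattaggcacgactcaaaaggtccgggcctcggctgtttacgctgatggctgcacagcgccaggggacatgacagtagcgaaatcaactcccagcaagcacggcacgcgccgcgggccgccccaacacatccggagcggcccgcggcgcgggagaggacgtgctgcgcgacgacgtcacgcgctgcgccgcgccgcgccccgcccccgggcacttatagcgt
Hnrnpa3: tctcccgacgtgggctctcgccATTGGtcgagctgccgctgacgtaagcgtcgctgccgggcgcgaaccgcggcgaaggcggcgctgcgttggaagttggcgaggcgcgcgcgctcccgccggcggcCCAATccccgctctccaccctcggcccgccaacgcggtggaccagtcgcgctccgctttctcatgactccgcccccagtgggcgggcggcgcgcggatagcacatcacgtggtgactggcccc
Hnrnpab: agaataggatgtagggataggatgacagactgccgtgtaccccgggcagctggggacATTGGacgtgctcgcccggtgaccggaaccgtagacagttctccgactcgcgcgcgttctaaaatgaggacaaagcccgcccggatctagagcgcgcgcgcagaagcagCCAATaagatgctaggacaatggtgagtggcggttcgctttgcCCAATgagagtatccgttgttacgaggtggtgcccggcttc
Hnrnpd: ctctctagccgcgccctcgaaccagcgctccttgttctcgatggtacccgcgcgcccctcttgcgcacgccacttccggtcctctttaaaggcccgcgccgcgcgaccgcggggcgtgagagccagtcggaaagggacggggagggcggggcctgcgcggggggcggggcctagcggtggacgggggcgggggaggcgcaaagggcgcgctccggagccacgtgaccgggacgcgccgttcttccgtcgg
Of the 6 stretches, 1, that of Srsf1, held an E2F-type motif, while CCAAT was seen in Srsf2, Hnrnpa3 and Hnrnpab. Exons of other genes in GENCODE M21 covered 238 of the 250 bases for Srsf1 and 128 for Hnrnpd. They covered 50 for Srsf2, 15 for Hnrnpa3 and 0 for Srsf6 and Hnrnpab. Over windows of 250 bases before to 50 after the RefSeq start, 2 of 9 called members (Srsf1 and Srsf10) held the E2F-type motif, as did 2 of the 19 others with a promoter sequence (Hnrnpr and Hnrnpul1), beside 3.33% of the 10296 tested genes with such a sequence. The other 7 of the 9 called members held no exact match to these letters in that window. For Srsf10, with 3 matches, the 250 bases lie wholly inside the first exon of the GENCODE gene, downstream of the start used for its position above; the same holds for Srsf12, Hnrnph3 and Hnrnpm, whose RefSeq stretch is exonic in GENCODE. CCAAT, the letters of the NF-Y motif, was in 4 of 11 SR and 13 of 17 hnRNP promoters, beside 42.9% of tested genes. By call, it was in 6 of 9 called members and 11 of 19 others. GGGCGG, an SP motif, was in 10 of 11 and 13 of 17, beside 68.6%. The ETS letters CCGGAAG were in 4 of 11 and 2 of 17 (18.8% of tested genes), the E-box CACGTG in 0 of 11 and 5 of 17 (11.5%), and the palindromic NRF1 motif in 0 of 11 and 0 of 17 (1.42%). All motifs were sought on both strands. A match is not evidence of binding, and the lack of an exact match is not evidence of its absence.

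The other A-type genes varied. Hnrnpa2b1, which sorts RNA for transport as well as splicing, had 23942 normalised reads in shControl, 20490 in replicate 1 and 16913 in replicate 2. Both were lower, but the log2 fold change of -0.36 did not pass (SE 0.22; limma, adjusted p = 0.31). Hnrnpa0 had 8214, 6103 and 6150 in the same order, a log2 fold change of -0.42 (limma, adjusted p = 0.14). Hnrnpa1, usually one of the most abundant hnRNP genes, had only 157, 111 and 83.2 normalised reads. That is 49.9 per kb of exon in shControl, beside 3636 for Hnrnpa2b1, and 28.2% of its stretches of 50 bases were also found in transcripts of other annotated genes, 19 of them pseudogenes. The share of reads set aside for low alignment quality was 17.0%, 15.9% and 20.5% in the order shControl, replicate 1 and replicate 2; their part in the low value of Hnrnpa1 was not tested. Its log2 fold change of -0.71 had a standard error of 0.42 (limma, adjusted p = 0.30).

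Hnrnpu, a scaffold protein of the nuclear matrix that binds both chromatin and RNA, had 35675 normalised reads in shControl, 23391 in replicate 1 and 21805 in replicate 2. Both shPHF2 libraries lay clearly under the control, at -0.66 on the log2 scale with a standard error of 0.22, but the gene was not called (limma, adjusted p = 0.085). The authors' deposited table gave it an adjusted p of 0.020 and called 6 SR and 4 hnRNP genes lower, Hnrnpu being the additional one, beside 7.96% of all genes with an adjusted p there. The relatives of Hnrnpu changed little: Hnrnpul1 had 6407, 5995 and 5365 normalised reads and Hnrnpul2 had 2892, 2876 and 2387. Their log2 fold changes were -0.18 and -0.14, and neither passed (limma, adjusted p = 0.55 and 0.66).

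The F and H type, which bind runs of G, held the 2 members whose shPHF2 libraries differed most. Hnrnph1 had 13024 normalised reads in shControl, 10229 in replicate 1 and 7317 in replicate 2. The log2 change was -0.35 in replicate 1 and -0.83 in replicate 2, and the fit did not call it (limma, adjusted p = 0.13). Hnrnph3 had 154, 134 and 77.2 normalised reads, so its low level leaves its change of -0.59 with a standard error of 0.47. Hnrnph2 and Hnrnpf had log2 fold changes of -0.34 and -0.28 and did not pass. The remaining 5 genes ranged from -0.55 (Hnrnpr) to -0.15 (Hnrnpl), with Hnrnpk at -0.47, Hnrnpm at -0.38 and Hnrnpc at -0.27, and 0 of them passed by limma, edgeR or DESeq2, while 2 of the 5 were lower at an unadjusted p under 0.05 (limma). At an unadjusted p under 0.05, 8 of the 18 hnRNP genes and 7 of the 11 SR genes were lower, beside 15.4% of all genes tested.

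How far apart the families lay depended on how their members were summarised. The SR median minus the hnRNP median, in log2 fold change, was -0.38 in replicate 1 and -0.28 in replicate 2. Means, unlike medians, depend on how far Srsf4 and Srsf12 lie from the other SR genes. By means, SR minus hnRNP was only -0.14 and -0.05 in the same order, with means over both libraries of -0.58 (SR) and -0.49 (hnRNP). Without the 3 members under a mean of 200 normalised reads (Srsf12, Hnrnpa1 and Hnrnph3), left out after seeing the data, the difference of means was -0.21 and -0.18. The quartiles were -0.94 and -0.33 for the SR genes and -0.64 and -0.30 for the hnRNP genes, both closer together than those of all genes tested (-0.40 and 0.42). For genes with a mean of at least 1000 normalised reads the quartiles were -0.40 and 0.26, nearer in spread to those of the SR genes. The ratio of summed normalised reads, SR over hnRNP, was 0.768 in shControl, 0.587 in replicate 1 and 0.612 in replicate 2, so both shPHF2 libraries lay under the control. The sum over the SR genes was 57.1% of the control in replicate 1 and 53.7% in replicate 2, and that over the hnRNP genes 74.7% and 67.5%. These sums are weighted towards the most abundant members. The difference between the families was not tested, because 1 library against 2 allows a permutation p no lower than 1 in 3.

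**Figure D3:**
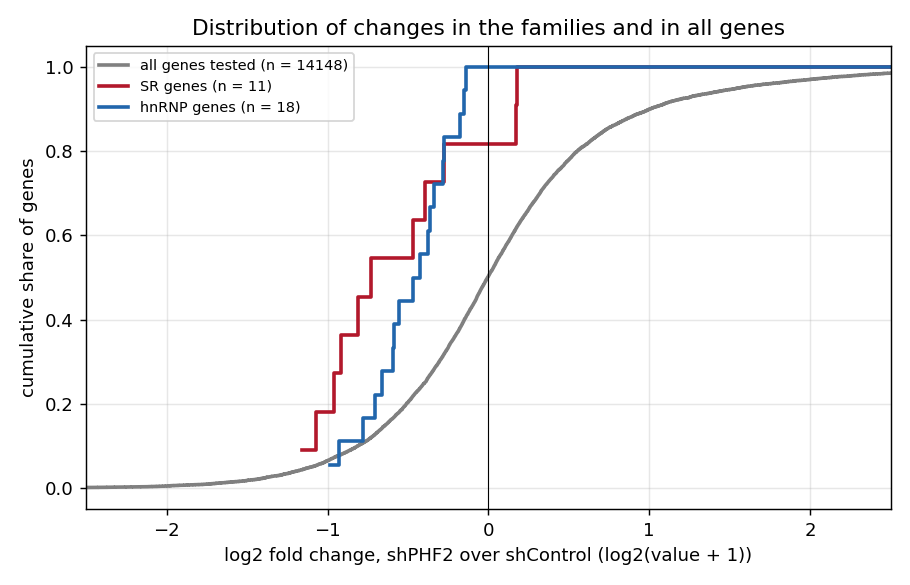
Cumulative share of genes (y axis) at or below each log2 fold change (x axis) for all 14148 genes tested, the 11 SR genes and the 18 hnRNP genes. The hnRNP genes all lie below 0, from -0.99 to -0.14, while the SR genes run from -1.16 to 0.18; the 2 SR genes above 0 are Srsf4 and Srsf12.

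The shPHF2 libraries kept a common order. Replicate 2 lay below replicate 1 for 11 of 11 SR genes and 15 of 18 hnRNP genes, beside 49.0% of all genes tested. The median difference of replicate 2 from replicate 1 on the log2 scale was -0.10 for the SR genes and -0.16 for the hnRNP genes. It was 0.006 over all genes tested and 0.015 over those with a mean of at least 1000. Replicate 2 had 26302177 reads in genes against 37171026 in replicate 1. Its share of reads set aside for low alignment quality was 20.5% against 15.9%. The part of these differences in the order was not tested. Phf2 was also lower in replicate 2, and a link between its level and that of the members was not tested. The members share libraries, so they are not independent measures of this order.

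Splice forms that end in decay are common in the annotation of the SR genes. In GENCODE M21, 9 of 11 SR genes have at least 1 transcript annotated to undergo nonsense-mediated decay, as do 8 of 18 hnRNP genes, beside 27.9% of the 12519 tested protein-coding genes. The 2 SR genes without one were Srsf10 and Srsf12. The deposited values count reads per gene, so productive and decaying forms cannot be told apart in them.

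Genes of SR-related proteins and of import receptors included several that fell. Of 39 SR-related proteins, SR kinases and import factors tested, 9 fell and 0 rose, by limma and also by edgeR and DESeq2, and 1 was higher at an unadjusted p under 0.05 by limma. Of all genes tested 7.11% were called lower by limma, and 11.7% of those with a mean of at least 1000. By edgeR 1140 and by DESeq2 970 of all 14148 genes tested were lower. The list had a median of -0.40 on the log2 scale. At an unadjusted p under 0.05 (limma), 16 of the 39 were lower, beside 15.4% of all genes tested. Both shPHF2 libraries lay below the control for 29 of the 39 and above it for 4, beside 41.8% below of all genes. The 3 that changed most were Tnpo1, an import receptor that carries hnRNP A1 into the nucleus (15262, 7466 and 7322 normalised reads in the order shControl, replicate 1 and replicate 2), Luc7l3, a relative of a yeast U1 snRNP protein (6130, 3441 and 2947), and Cpsf6, of the 3′ end cleavage complex (12103, 6976 and 6654). Their log2 fold changes were -1.05, -0.94 and -0.83 (limma, adjusted p = 0.013, 0.018 and 0.023). Tra2a and Tra2b, the SR-like transformer-2 genes, and Tnpo3, the import receptor for SR proteins, also fell, by 0.68, 0.74 and 0.63 on the log2 scale; these 3 were picked with their values in view. The 7 kinase genes Srpk1 to Srpk3 and Clk1 to Clk4, whose products phosphorylate SR proteins, had smaller changes: 0 were called by limma, edgeR or DESeq2, with log2 fold changes from -0.37 (Srpk1) to 0.42 (Srpk2). By limma at an unadjusted p under 0.05, 0 were lower and 1, Srpk2, was higher; it was picked with its value in view.

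Proteins of the hnRNP class under other symbols gave 7 lower and 0 higher genes of 39 tested (limma), with a median of -0.31. The 7 include Hnrpdl, described above. By edgeR and DESeq2, 8 each were lower and 0 higher, beside 1140 and 970 lower of all 14148 genes tested. At an unadjusted p under 0.05 by limma, 1 was higher and 14 were lower, beside 15.4% lower of all genes. Both shPHF2 libraries lay below the control for 29 of the 39 and above it for 7, beside 41.8% below of all genes. The shares called lower over all genes were again 7.11% and, at a mean of at least 1000, 11.7%. Fubp1, a binder of single-stranded DNA and RNA, had 17423 normalised reads in shControl and 8323 and 7522 in shPHF2, and the cold-inducible gene Rbm3 had 2155, 1120 and 1042. Ptbp2, the neuronal form of the polypyrimidine tract binding protein, went from 5816 to 2669 and 3189. Their log2 fold changes were -1.14, -0.996 and -0.995 (limma, adjusted p = 0.011, 0.017 and 0.016).

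Core components of the spliceosome also included 9 lower and 0 higher genes, of 56 tested (limma), with a median of -0.36; 0 were higher at an unadjusted p under 0.05 or by edgeR or DESeq2. That count of lower genes stands beside 7.11% of all genes tested and 11.7% of those with a mean of at least 1000. At an unadjusted p under 0.05 (limma), 24 of the 56 were lower, beside 15.4% of all genes tested. Both shPHF2 libraries lay below the control for 49 of the 56 and above it for 4, beside 41.8% below of all genes. Lsm2, of the ring that binds U6 RNA, went from 1978 normalised reads to 935 and 861, the Sm protein gene Snrpd1 from 3670 to 1872 and 2141, and Phf5a, a subunit of the branch site complex, from 4842 to 2732 and 2743. The log2 fold changes were -1.14, -0.87 and -0.82 (limma, adjusted p = 0.013, 0.022 and 0.021).

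The last list held splicing regulators with roles in neurons or in other tissues, such as Esrp1 and Rbm20. Of its 21 genes tested, 2 fell and 2 rose (limma), beside 7.11% and 7.22% of all genes, and the median was -0.14. Both shPHF2 libraries lay below the control for 9 of the 21 and above it for 7. The counts by edgeR were the same, DESeq2 called 2 lower and 3 higher, and 3 were lower and 5 higher at an unadjusted p under 0.05 (limma). Rbfox1, which binds GCAUG and directs neuronal exons, had 30.9 normalised reads in shControl, 199 in replicate 1 and 286 in replicate 2, a log2 fold change of 2.91 (limma, adjusted p = 0.0085). Celf5, of the CELF family of splicing regulators, had 120, 346 and 715, a log2 fold change of 2.05 (limma, adjusted p = 0.022). The genes that fell were Ptbp2, as above, and Elavl4, a neuronal relative of the RNA-stabilising protein HuR, at -0.86, which was picked with its value in view.

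**Figure D4:**
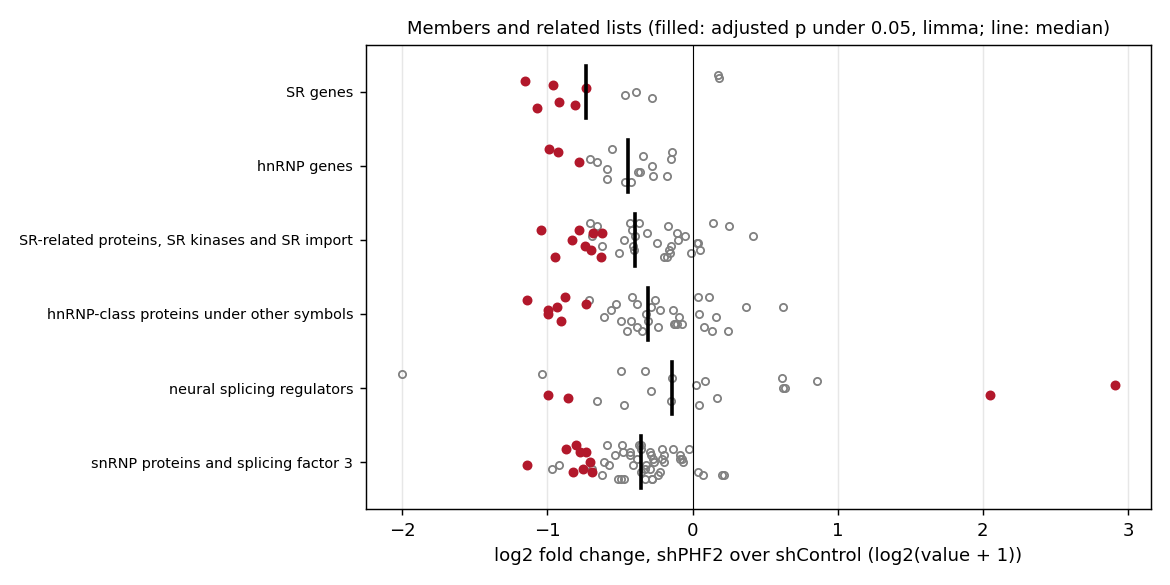
Log2 fold change (x axis) of each gene tested in the SR and hnRNP families and in the 4 related lists; filled points had an adjusted p under 0.05 and vertical lines are medians. The medians run from -0.73 for the SR genes to -0.14 for the list labelled neural splicing regulators. That list also holds regulators of other tissues, and its called genes lie on both sides of 0.

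Several members share sequence with other genes, which could bear on their counts. The share of stretches of 50 bases also found in transcripts of other annotated genes was highest for Hnrnpf (61.9%) and Srsf4 (39.5%), neither of which was called. Both strands were searched, so an exon overlap on the opposite strand counts in this share. Srsf4, 1 of the 2 members above the control, shared stretches with 1 other gene. It overlaps 1532 exon bases of Gm12992 on the opposite strand. Among the called members the share was 27.1% for Hnrnpa3 (shared with 46 genes, 41 of them pseudogenes), 23.8% for Hnrnpab and 20.7% for Srsf2 (shared with 2 genes). It was 10.3% for Srsf10, 10.0% for Srsf3, 5.06% for Hnrnpd, 0.882% for Srsf1, 0.556% for Srsf7 and 0% for Srsf6. Hnrnpab overlaps 809 exon bases of Phykpl on the opposite strand and Hnrnpd 385 bases of Gm17092. On the same strand, exons of another gene overlap 1169 bases of Hnrnpm, 360 of Hnrnpul2 and 57 of the called Hnrnpa3. The part of shared and overlapping sequence in the changes was not tested.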

How the data were processed

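RNA from 3 libraries of mouse neural stem cells was sequenced with a stranded total RNA kit after ribosomal depletion, per the labels' protocols. HISAT2, HTSeq, DESeq2 and the build mm10 were used, per the submitters' processing notes; versions, annotation and the strand setting: not given in the sources here. The deposited signal is read counts that the authors divided by a size factor, per the file headers and as the values show. In each column 100% of values were whole multiples (within 0.001) of the smallest value above 0, so whole reads were recovered for the alternatives. The deposited table also holds the authors' log2 fold changes, Wald score, p-values and adjusted p-values, per the file headers. The table has 4 rows that name no gene, which were left out; reads in genes made up 38.5% to 38.6% of reads, and 0 library columns were unused. For both shPHF2 libraries a check of the unit accepted whole reads; for shControl it could not tell the step, close to 1, from rounding.

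The test was limma 3.58.1 in R 4.3.3 on log2(value + 1), for genes with a mean of at least 10, two-sided, with 1 residual degree of freedom from the shPHF2 libraries and 6.94 prior ones; the fit takes the control to vary as they do. The shPHF2 libraries differed by more than sampling noise (chi-square per degree of freedom 58.9, 14185 genes) and were counted as 2 samples. Nothing but the series' description says that they were separate cultures. Alternatives were a pseudocount of 5, a minimum mean of 50 or none, no trend, TMM scaling, edgeR 4.0.16 and DESeq2 1.42.0 on recovered reads, and each shPHF2 library alone. The scripts were tested on simulated data. Exon lengths and positions are from GENCODE M21 (GRCm38), all members matched, and lengths are those of all annotated exons merged. Promoters are from RefSeq (GRCm38.p6), with 28 of 29 members matched; the last bases of the window lay in a transcript of the same strand for 26 of these. Members, related lists and the grouping of relatives were chosen with earlier results of these data known. Values were given for members that passed the test, the 3 in each family with the most reads per kb, the 2 in each family whose shPHF2 libraries differed most, relatives of these, and Srsf11, added so that every SR gene has its values, and for the 3 largest changes called in each related list. Protein sequences were not used here.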

Additional observations from a re-analysis of the deposited data

How the results depend on the processing

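The medians of both families, and the log2 fold changes of all 29 members, kept their sign under every alternative run. Dropping the trend or changing the filter cannot alter the fold change of a member, and every alternative used the same control library. So the kept sign says little about the control. Hnrnpul2 changed by only -0.0077 in replicate 1 alone, and Srsf4 by only 0.039 in replicate 2 alone. The calls rest on how limma pools the spread: without the mean-variance trend, and with no filter on low values, 0 SR and 0 hnRNP genes were called lower, as were 0 genes of the whole table. There, 6 SR and 4 hnRNP genes (no trend) and 7 SR and 7 hnRNP genes (no filter) were lower at an unadjusted p under 0.05, and the adjusted p of the 9 called members ranged from 0.14 to 0.19. With a pseudocount of 5, a minimum mean of 50, TMM scaling or edgeR, the same 9 members were called and the other 20 were not; DESeq2 added Hnrnpu (adjusted p = 0.020). With each shPHF2 library alone no test was possible, since no residual degrees of freedom remain. Between the libraries taken alone, the SR median ranged from -0.76 to -0.70, the hnRNP median from -0.48 to -0.33 and their difference from -0.38 to -0.28, the smaller hnRNP shift and the larger difference coming without replicate 2. Without the 3 members under a mean of 200, and with Hnrpdl and Hnrpll added, both chosen after seeing the data, the medians moved by less than the spread between the libraries. With means in place of medians, an alternative also added after seeing the data, the SR value was -0.58 and the difference -0.10. The difference of medians was -0.37 without those 3 members (Srsf12, Hnrnpa1 and Hnrnph3) and -0.22 with the 2 genes added. No paired analysis was possible because the control is a single library with no replicate number.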
